A study of Mus musculus with 46 samples.

Results

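Acetylation of histone H3 at lysine 27 (H3K27ac) was compared between microglia from mice fed cuprizone and microglia from untreated adult mice. The comparison used 4 of the 46 samples of the series, namely 2 H3K27ac libraries of Ki67-negative microglia after cuprizone and 2 of adult basal microglia. They were chosen by their labels, in which both groups were H3K27ac ChIP-seq and had the cell type Ki67-negative microglia, although only the titles of the cuprizone libraries name Ki67. Diet and age differed between them. The cuprizone mice were male wild-type C57BL/6, had eaten cuprizone for 4 weeks and were 90 days old at sacrifice. The adult basal mice were male wild-type C57BL/6 with no treatment in the labels, and were 60 days old for replicate 1 and 65 days old for replicate 2, so that age and diet cannot be told apart. Cells of all 4 libraries were enriched on Percoll, stained for CD11b, CD45 and CD44, fixed in paraformaldehyde, stained with an antibody to Ki67 and sorted. Cells were kept in buffers with butyrate, an inhibitor of histone deacetylases, and flavopiridol, an inhibitor of transcription. The 4 deposited lists held 99096 regions, which merged into a union of 32458.

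H3K27ac marks active promoters and enhancers, and a rise in it near a gene usually accompanies greater use of its regulatory elements. Microglia are the resident macrophages of the brain and clear debris, including myelin. Cuprizone is a copper chelator that kills oligodendrocytes and strips myelin from axons, and microglia in such lesions take up lipid-rich debris. Microglia next to dying cells or amyloid are known to take up a state called disease-associated, with Apoe, Lpl, Cst7, Itgax, Clec7a and Axl among its genes, while P2ry12, Tmem119, Cx3cr1 and Sall1 mark the resting, homeostatic state. Ki67 is a protein of cycling cells, so Ki67-negative cells were those not in cycle at the time of sorting.

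Promoters of 7 genes are shown because the results below turn on them. Apoe and Itgax lay in regions whose H3K27ac rose, Igf1, Axl, Ifit1 and Oas1a in regions listed only after cuprizone, and P2ry12 in a region that did not pass the test in either direction. Each sequence is RefSeq's, of build GRCm38.p6 (mm10), runs 5′ to 3′ on the gene's strand, and spans 250 bases before the annotated start to 50 bases after it. Capitals mark matches, on either strand, to 7 motifs: GAGGAAGT (PU.1), TGANTCA (AP-1), CACGTG (E-box), GAAA followed by any NN and GAAA again (IRF), TTGCNNAA (C/EBP), AGGTCA repeated after NNNN (LXR), and CTA and TAG around NNNN (MEF2).
Apoe, chr7:19699139-19699438, minus strand: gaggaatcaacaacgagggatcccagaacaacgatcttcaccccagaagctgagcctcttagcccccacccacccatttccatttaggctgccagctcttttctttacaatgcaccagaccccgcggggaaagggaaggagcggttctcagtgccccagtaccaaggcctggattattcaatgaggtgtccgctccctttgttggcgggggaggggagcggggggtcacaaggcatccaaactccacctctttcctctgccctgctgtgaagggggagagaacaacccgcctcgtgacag
Itgax, chr7:128129300-128129599, plus strand: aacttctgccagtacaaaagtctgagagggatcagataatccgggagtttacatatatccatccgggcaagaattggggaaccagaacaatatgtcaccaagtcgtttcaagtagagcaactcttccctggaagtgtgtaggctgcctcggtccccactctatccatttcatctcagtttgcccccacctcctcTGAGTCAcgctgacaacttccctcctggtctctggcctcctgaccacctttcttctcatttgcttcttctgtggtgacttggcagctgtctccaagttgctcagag
Igf1, chr10:87860861-87861160, plus strand: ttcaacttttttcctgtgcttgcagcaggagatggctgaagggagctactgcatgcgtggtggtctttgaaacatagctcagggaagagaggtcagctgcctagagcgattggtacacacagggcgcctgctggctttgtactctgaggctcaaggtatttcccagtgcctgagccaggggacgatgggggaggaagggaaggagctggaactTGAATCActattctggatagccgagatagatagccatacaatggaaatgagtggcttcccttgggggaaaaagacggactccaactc
Axl, chr7:25788684-25788983, minus strand: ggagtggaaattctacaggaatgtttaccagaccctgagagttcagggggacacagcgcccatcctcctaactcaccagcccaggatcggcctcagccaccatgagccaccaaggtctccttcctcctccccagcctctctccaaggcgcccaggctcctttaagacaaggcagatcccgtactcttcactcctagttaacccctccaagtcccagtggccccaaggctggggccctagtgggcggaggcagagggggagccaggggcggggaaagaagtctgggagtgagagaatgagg
Ifit1, chr19:34640639-34640938, plus strand: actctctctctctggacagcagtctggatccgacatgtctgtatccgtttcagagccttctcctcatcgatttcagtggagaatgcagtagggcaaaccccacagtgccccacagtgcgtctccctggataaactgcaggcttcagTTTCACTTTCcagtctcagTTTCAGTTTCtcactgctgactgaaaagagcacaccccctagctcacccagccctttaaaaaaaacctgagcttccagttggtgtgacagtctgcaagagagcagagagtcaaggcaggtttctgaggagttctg
Oas1a, chr5:120907476-120907775, minus strand: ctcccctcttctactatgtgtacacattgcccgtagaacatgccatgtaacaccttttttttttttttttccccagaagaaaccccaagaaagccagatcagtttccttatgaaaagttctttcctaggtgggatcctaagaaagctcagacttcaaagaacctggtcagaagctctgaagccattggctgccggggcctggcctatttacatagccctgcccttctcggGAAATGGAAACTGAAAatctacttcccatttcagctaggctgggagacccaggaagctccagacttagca
P2ry12, chr3:59262936-59263235, minus strand: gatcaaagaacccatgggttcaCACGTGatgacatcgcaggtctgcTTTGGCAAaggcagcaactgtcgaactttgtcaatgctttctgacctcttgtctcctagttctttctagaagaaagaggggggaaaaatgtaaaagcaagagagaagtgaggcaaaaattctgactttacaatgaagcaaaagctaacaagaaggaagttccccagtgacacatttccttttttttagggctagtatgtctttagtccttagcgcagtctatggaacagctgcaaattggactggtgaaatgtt
The Itgax window held AP-1 letters at base 195 and the Igf1 window at base 214, counted from the 5′ end. In Ifit1 the IRF letters stood at bases 147 and 166, and in Oas1a at bases 231 and 237, where both matches overlap. The P2ry12 window held an E-box at base 23 and C/EBP letters at base 47. Apoe and Axl held none of the 7 motifs in these windows.

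Sequencing depth was even, at 20011796 and 19815561 tags for the cuprizone libraries and 22888521 and 19754962 for the adult ones. The share of tags that fell in listed regions was not even. It was 56.3% and 69.66% in the cuprizone libraries, 32.6% in adult replicate 1 and 58.31% in adult replicate 2. The listed regions covered 40.7 and 51.94 Mb after cuprizone, and 29.96 and 42.04 Mb in the adult. Adult replicate 1 stood apart with the lowest share and the shortest list, and the numbers of called regions are also given without it. Over all regions within 100000 bp of a start site that were in all 4 lists, 15801, the number higher was then 542 and the number lower 359, against 151 (0.956%) and 28 (0.177%) with it. Over the 16994 regions in all 4 lists the median region held 199.9 and 254.3 normalized tags after cuprizone, and 111.0 and 197.9 in the adult, where a normalized tag is a tag per 10000000 of the library. That is a mean shift of 0.60 on the log2 scale, so every log2 difference below was taken after centring each library on its median region and is relative to that region. The list headers carry a code each, whose meaning the labels do not give. No code was shared between the 2 groups, so code and diet cannot be told apart, and the headers of the adult libraries carry the word Vehicle, which their labels do not explain. The labels do not say whether the H3K27ac replicates came from separate animals, so the p-values measure the spread between these samples, which may be technical.

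The cells carried the microglial mark. Regions covered the start sites of 10 of 10 microglial markers in each of the 4 libraries, among them P2ry12, Cx3cr1 and Sall1. The region over the P2ry12 start site, a purine receptor that steers microglial processes, held 2415 and 2617 tags after cuprizone and 2533 and 3118 in the adult.

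More regions were listed only after cuprizone than only in the adult. Of the 32458 union regions, 2065 (6.36%) were listed in both cuprizone libraries and neither adult library, and are called gained here. Only 98 (0.302%) were listed in both adult libraries and neither cuprizone library, and are called lost. The 4 lists shared 16994 regions (52.4%), cuprizone replicate 2 alone held 4543 (14.0%), and both cuprizone libraries with adult replicate 2 held another 3473 (10.7%). Without adult replicate 1, the gained regions numbered 2358 and the lost ones 1086. In that count a lost region needed only 1 adult list, so the 988 regions of adult replicate 2 alone became lost ones. A gained region still needed both cuprizone lists. The 2 ratios thus rest on unlike criteria, and they cannot show how far the excess of gained over lost regions depended on adult replicate 1. Of the gained regions, 1417 (68.6%) lay more than 5000 bp from any adult region and the others within that distance.

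**Figure D1:**
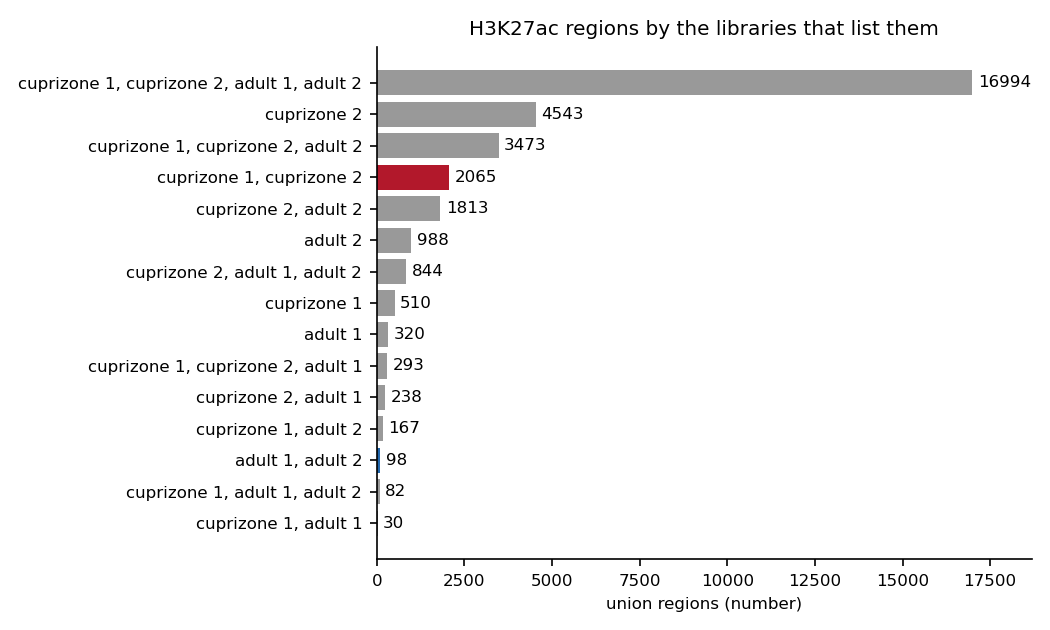
Number of union regions (x axis) for each combination of libraries that listed them (y axis, 2 cuprizone Ki67-negative and 2 adult basal libraries). The red bar is the 2065 regions of both cuprizone libraries alone and the blue bar the 98 of both adult libraries alone.

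Signal was tested in the 16994 regions with a value in every library. By limma with Benjamini-Hochberg adjustment, 211 regions (1.24%) passed an adjusted p of 0.05, 179 of them higher after cuprizone (1.05%) and 32 lower (0.188%). At an unadjusted p under 0.05 there were 2702. Higher regions made up 84.8% of the calls, 100.0% with the values as deposited (152 higher, 0 lower) and 70.9% per kb of covered length (134 higher, 55 lower). Without adult replicate 1, 611 regions were higher and 413 lower, 59.7% of them higher, with 179 of the 179 and 31 of the 32 kept. Among the genes below, the calls at Mitf, Cebpb, Lipa, Ccl2, Csf1, Itgb2, Plcg2, Atp6v1a and Cep170 were lost per kb of covered length. Leaving out a cuprizone replicate left fewer calls, 41 higher and 33 lower without replicate 1 and 17 higher and 4 lower without replicate 2. The difference fell with the level: with the regions divided into 4 groups by level, its median was 0.14 in the lowest group and -0.26 in the highest.

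**Figure D2:**
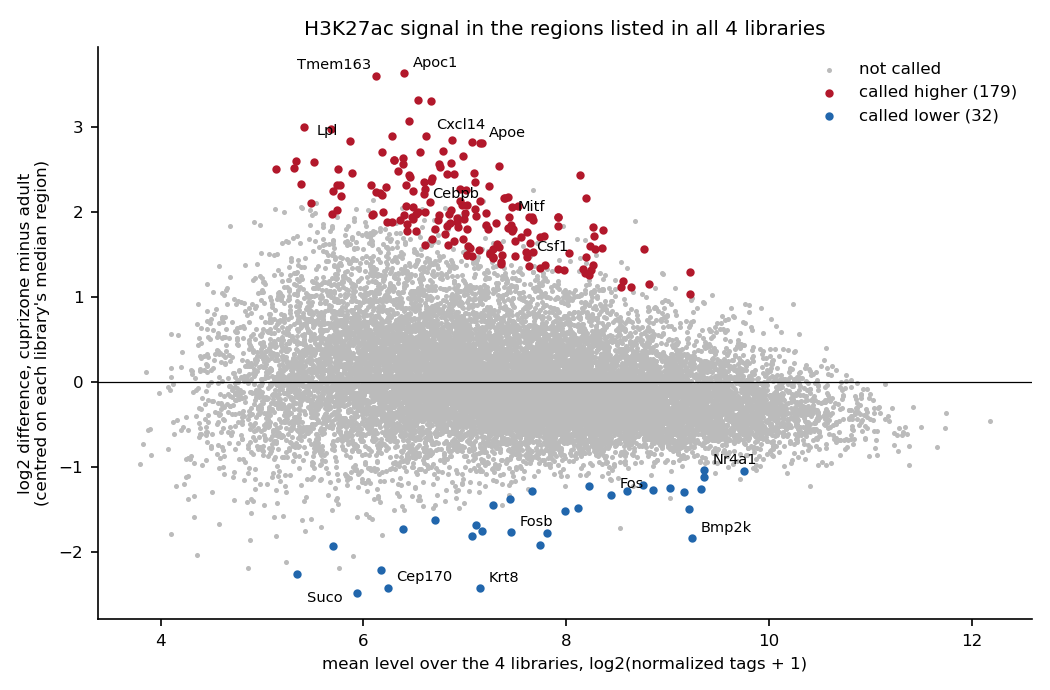
Each point is a region listed in all 4 libraries, with its mean log2 level on the x axis and the log2 difference of cuprizone minus adult on the y axis, after centring each library on its median region. The 179 red regions passed the test higher, the 32 blue ones lower, and the named genes are the nearest start sites.

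The largest increase lay beside Apoe, but nearest to the start site of Apoc1. Apoe encodes the main lipid carrier of the brain. A region at chr7:19692820-19695620, between Apoe and its neighbour Apoc1, held 285 and 469 tags after cuprizone and 12.2 and 27.8 in the adult. Its log2 difference was 3.63 (SE 0.40, limma adjusted p 0.001993). Over the Apoe start site (chr7:19698292-19702294) the values were 352 and 607 against 25.8 and 70.4, a log2 difference of 2.80 (SE 0.36, limma adjusted p 0.002139). At both regions each cuprizone value was above each adult value. The call at the start site was lost without cuprizone replicate 2 (log2 difference 2.59, limma adjusted p 0.05175). The authors' RNA table gave Apoe 188 and 217 TPM in separate samples from older adult mice, at percentile 98.8 of all genes. TPM is a level scaled for transcript length and library size. Apoe RNA was thus abundant in the adult while its start-site region was low. Apoc1 had 0.41 and 0.0 TPM in the same samples, so its RNA was low along with its region. No RNA was measured after cuprizone.

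The 40 disease-associated genes had many gained regions. Their start sites had 162 regions within 100000 bp, of which 24 were gained (14.8%, in 15 genes) and 0 lost, against 6.11% gained over all regions that close to a start site. Without adult replicate 1 the gained regions again numbered 24, and 16 of the 24 lay over 5000 bp from any adult region. Of 68 regions in all 4 lists, 7 in 6 genes rose (Apoe, Lpl, Itgax, Csf1, Itgb2 and 2 at Cd9) and 0 fell. The share higher was 10.3%, against 0.956% of all regions. The median difference was 0.20, beside -0.08 over all regions, and 0.39 after quantile normalization. When adult replicate 1 was left out, 12 rose and 1 fell.

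Lpl and Ch25h, of the same list, had gained regions at and away from the start site. Lpl, the lipoprotein lipase that frees fatty acids from lipoproteins, had a gained region over its start site with 230 and 363 tags. A second gained region lay 32066 bp downstream with 205 and 234 tags. Another region, 44543 bp downstream, rose from 17.9 and 15.7 tags in the adult to 174 and 208, a log2 difference of 2.83 (SE 0.47, limma adjusted p 0.009857), and its adjusted p was 0.06044 and 0.07739 without cuprizone replicate 1 and 2. Neither adult library listed the start site of Ch25h, the enzyme that makes 25-hydroxycholesterol, while the cuprizone libraries held 124 and 375 tags there. Ch25h had 4 gained regions among its 7.

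Surface receptors and adhesion molecules followed. Itgax, the CD11c integrin, rose over its start site from 80.8 and 151 tags to 363 and 532, a log2 difference of 1.38 (SE 0.29, limma adjusted p 0.03081). Axl, a receptor kinase that binds dying cells through Gas6, had a gained start-site region (chr7:25786336-25789194) with 236 and 428 tags, the nearest adult region being 8386 bp away. Clec7a, the beta-glucan receptor dectin-1, had one with 135 and 265 tags, although a short region in adult replicate 2 lay 518 bp from it. Cd9, a tetraspanin, rose over its start site from 122 and 343 tags to 855 and 985, with a log2 difference of 1.56 (SE 0.28, limma adjusted p 0.01306). At Itgax and Cd9 both cuprizone values were above both adult values. Per kb of covered length the differences were 0.76 at Itgax and 0.57 at Cd9 and neither was called, nor was either without a single cuprizone replicate.

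Secreted factors and proteases of the same list were less uniform. Csf1, the growth factor of microglia themselves, rose over its start site from 68.6 and 131 tags to 331 and 484 (log2 difference 1.46, SE 0.30, limma adjusted p 0.02818). Igf1, a growth factor for oligodendrocytes, had 3 gained regions within 100000 bp. Its start-site region was 339031 bp from the nearest adult region and held 205 and 364 tags. Lgals3, the sugar-binding galectin-3, had a gained start-site region with 78.0 and 136 tags. Cst7, an inhibitor of lysosomal proteases, was in 3 of the lists with 112 and 225 tags after cuprizone and 22.3 in adult replicate 2. Spp1, or osteopontin, had 228 and 258 tags in a region 7823 bp upstream, 24.3 in adult replicate 2 and no listing in adult replicate 1. Gpnmb was listed in cuprizone replicate 2 alone, with no region over its start site.

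Trem2 and Abca1 did not pass the test. Trem2, the lipid receptor upstream of the disease-associated state, had 1077 and 1181 tags after cuprizone and 439 and 892 in the adult over its start site, a log2 difference of 0.25 (SE 0.24). Abca1, the cholesterol exporter, had 848 and 822 against 461 and 659 over its start site, with a difference of -0.00 (SE 0.25). Neither value shows that the 2 groups were alike.

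**Figure D3:**
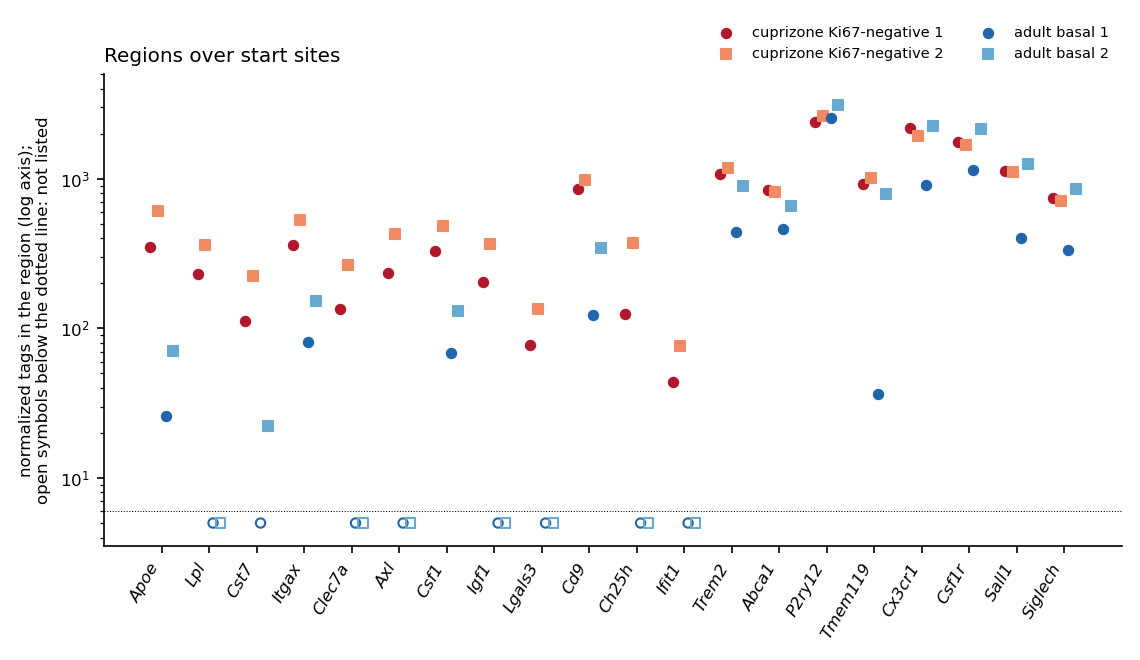
Normalized tags (log axis) in the region over the start site of each gene, by library: red for cuprizone Ki67-negative, blue for adult basal, circles for replicate 1 and squares for replicate 2. Open symbols below the dotted line mark libraries that did not list the region; Apoe ran from 25.8 in adult replicate 1 to 607 in cuprizone replicate 2, while P2ry12 lay between 2415 and 3118 in all 4.

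Lipid handling and cholesterol efflux, a list of 30 genes, had 13 gained regions of 131 in 7 genes and 0 lost. The gained share was 9.92%, against 6.11% of all regions. Of 59 regions in all 4 lists, 5 rose (8.47%, against 0.956% of all regions) and 0 fell. The median difference was 0.23. With adult replicate 1 left out, 14 rose and 0 fell, beside 542 and 359 of 15801 over all regions. Those 5 were the regions of Apoe, Apoc1 and Lpl above with Lipa and Nceh1. Lipa, the lysosomal acid lipase, rose from 26.2 and 110 tags to 281 and 415 (log2 difference 2.04, SE 0.40, limma adjusted p 0.02352). Nceh1, which hydrolyses cholesterol esters, rose 25917 bp downstream of its start from 20.1 and 53.7 to 192 and 242 (2.07, SE 0.40, limma adjusted p 0.02267). It had 2 gained regions besides, one of them with 277 and 388 tags. Plin2, the coat protein of lipid droplets, had 2 gained regions with 107 and 183 and with 84.5 and 143 tags. The first lay 599 bp from an adult region and the second 18354 bp.

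Sterol synthesis genes had no call. None of its 17 regions in all 4 lists passed the test by limma, beside 0.956% higher and 0.177% lower of all regions. The median difference was -0.05. Of its 28 regions 3 were gained (10.7%, against 6.11% of all regions).

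Interferon-response genes had 7 gained regions of 51 (13.7%, against 6.11% of all regions) in 6 genes. Of 19 regions in all 4 lists, 1 rose (5.26%, against 0.956% of all regions), or 3 without adult replicate 1. The riser was Rtp4, an interferon-induced chaperone, whose start-site region went from 17.9 and 40 tags to 163 and 336 (log2 difference 2.48, SE 0.42, limma adjusted p 0.009972). Ifit1, which binds viral RNA, had a gained start-site region with 44.0 and 76.7 tags, and Oas1a, a sensor of double-stranded RNA, one with 16.5 and 68.1. These values were low beside those of the lipid genes, but each was listed in both cuprizone libraries. The IRF letters shown above stood in 14 of the 151 promoters (9.27%) that RefSeq gave for gained start-site regions, in 3.01% of the promoters in regions of all 4 lists and in 3.44% of all 32851 promoters. Ifi207, Ifi211, Trim21 and Phf11a, which are interferon genes, and Cybb were among the 14, with Ifit1 and Oas1a. The rest of the 14 were Chek1, Fancg, Gm20498, Il1rap, Mrps18c, Mthfd2l and Vegfa. Median GC content was 59.3% in the gained set and 52.7% in all promoters. AP-1 letters stood in 6.62% of the gained promoters, 4.09% of those in regions of all 4 lists and 7.81% of all. PU.1 letters stood in 3.97%, 3.68% and 3.2%.

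Growth factors linked to myelin repair had the highest share of gained regions, 10 of 56 (17.9%, against 6.11% of all regions). However, 6 of the 10 were those of Igf1 and Lgals3, which are also in the disease-associated list. Fgf2 had 2, one over its start site with 59.0 and 106 tags. Vegfa had 14.0 and 106, which differ between replicates more than most. Of 26 regions in all 4 lists 1 rose (3.85%, against 0.956% of all regions). Without adult replicate 1, 1 rose and 1 fell. The region that rose lay at Sema4d, a guidance molecule, 48846 bp downstream of its start. It held 25.3 and 158 tags in the adult and 369 and 524 after cuprizone (log2 difference 2.17, SE 0.45, limma adjusted p 0.02818).

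Of 64 regions of cytokine and NF-kB genes in all 4 lists, 2 rose (3.12%, against 0.956% of all regions) and 0 fell, with a median difference of -0.29. With adult replicate 1 left out, 3 rose and 3 fell. Ccl2, which attracts monocytes, rose 27501 bp upstream from 14.4 and 78.0 tags to 256 and 281 (log2 difference 2.35, SE 0.47, limma adjusted p 0.02472). A region 55186 bp upstream of Cxcl14 rose from 17.9 and 44.0 to 282 and 382 (2.90, SE 0.38, limma adjusted p 0.002957), although Cxcl14 was hardly transcribed in adult microglia, at 0.672 and 0.303 TPM. The list had 10 gained regions of 118 (8.47%, against 6.11% of all regions). Of these, 3 lay upstream of Tlr2, at 357, 2080 and 8370 bp from an adult region.

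Of 133 regions of microglial and macrophage transcription factors in all 4 lists, 2 rose (1.5%, against 0.956% of all regions) and 0 fell. Without adult replicate 1, 6 rose and 2 fell. Mitf, a regulator of lysosomal genes, rose over its start site from 32.3 and 154 tags to 373 and 467 (log2 difference 1.94, SE 0.40, limma adjusted p 0.02761). Cebpb rose 25574 bp downstream from 29.3 and 119 to 340.3 and 384 (1.99, SE 0.39, limma adjusted p 0.02284). Bhlhe40, a transcriptional repressor, had a gained start-site region with 259 and 464 tags and no adult region within 119887 bp. The list's gained share, 15 of 249 (6.02%), was near that of all regions.

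Immediate early genes were the list of the 15 with regions called lower. Of 77 regions in all 4 lists 4 fell (5.19%, against 0.177% of all regions) and 0 rose. The median difference was -0.50, the lowest of the 15 lists (-0.32 after quantile normalization). Leaving adult replicate 1 out, 11 fell and 2 rose, beside 359 and 542 of 15801 over all regions. As deposited, without centring, 0 regions were called lower in any list. Fosb, an AP-1 subunit, fell 8487 bp upstream of its start from 176.5 and 389 tags in the adult to 121 and 112 (log2 difference -1.77, SE 0.32, limma adjusted p 0.01631). Regions near Fos, the partner of Jun in AP-1, and near Klf2 and Nr4a1, which also respond within minutes to stimuli, fell by 1.33, 1.21 and 1.04 on the log2 scale (limma adjusted p 0.04528, 0.04593 and 0.04723). The calls at Fos, Klf2 and Nr4a1 were lost after quantile normalization, and those at Fosb, Klf2 and Nr4a1 per kb of covered length. At Fosb, Fos and Klf2 each cuprizone value was below each adult value. At Nr4a1 the deposited tags overlapped, 532 and 597 after cuprizone and 574 and 1015 in the adult.

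Homeostatic genes had no call. Of 119 regions in all 4 lists 0 rose and 0 fell by limma, beside 0.956% and 0.177% of all regions. With shares that small, 0 calls in 119 regions do not set the list apart. The median difference was -0.20, which turned to 0.40 as deposited and was -0.04 after quantile normalization. Their median level was 8.53 on the log2 scale, against 7.51 over all regions, so they sat where the difference ran below 0 for regions at large. Without adult replicate 1, 13 of the 119 fell and 0 rose, beside 359 and 542 of 15801 over all regions in that fit. Among the immediate early genes 11 of 77 regions then fell. P2ry12 had a difference of -0.76 over its start site (SE 0.27, limma adjusted p 0.182), Csf1r of -0.47 (SE 0.25) and Siglech, a sialic acid receptor, of -0.16 (SE 0.27). For Cx3cr1, the fractalkine receptor, it was -0.08 (SE 0.27) and for Sall1, the factor that holds microglial identity, 0.07 (SE 0.28). Tmem119 had 925 and 1015 tags after cuprizone, 786 in adult replicate 2 and 36.7 in adult replicate 1, and its difference of 1.89 (SE 0.68) was 0.11 without the latter. With the replicate number as a block P2ry12 was called lower and Tmem119 higher by limma. That fit joins samples that share only a number, has 1 residual degree of freedom and called more regions than the main fit. Per kb P2ry12 was called lower as well (-0.76, limma adjusted p 0.02887). The list had 8 gained regions of 204 (3.92%, against 6.11% of all regions), 3 of them over 5000 bp from an adult region. It had 1 lost, a short stretch of Cx3cr1 183 bp from a cuprizone region.

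**Figure D4:**
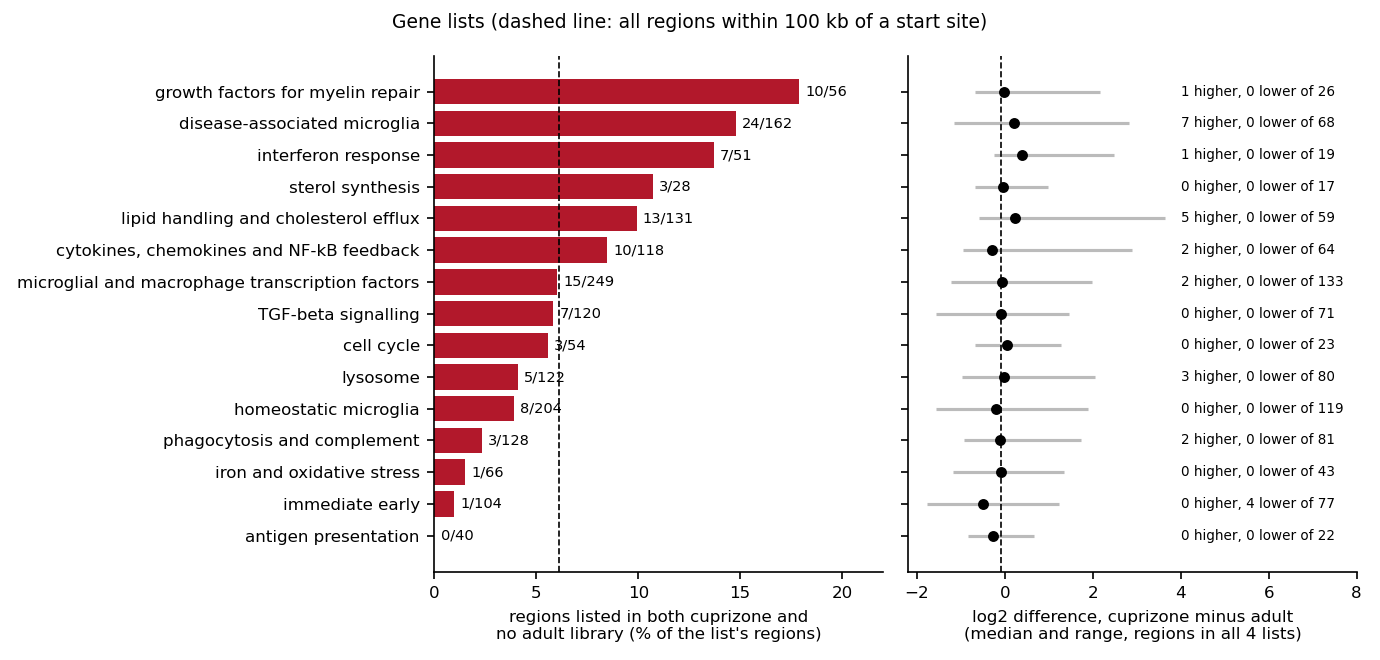
Left, the share of each list's regions that were listed in both cuprizone and no adult library, with counts; right, the median (point) and range (line) of the log2 difference of cuprizone minus adult over the list's regions in all 4 libraries, with the number called. Dashed lines give all regions within 100000 bp of a start site (6.11% and -0.08); disease-associated genes stood at 14.8% and 0.20, homeostatic ones at 3.92% and -0.20.

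Lysosomal genes had 3 of 80 regions higher (3.75%, against 0.956% of all regions), those of Lipa and Mitf and one near Atp6v1a, a proton pump subunit, at 372 and 364 tags against 74.7 and 100.2. Phagocytosis and complement had 2 of 81 higher (2.47%), near Itgb2 and Plcg2. With adult replicate 1 left out, 7 lysosomal regions were higher and 1 lower, and 5 and 0 of the phagocytosis list. Over all regions 0.956% were called higher and 0.177% lower. Antigen presentation (22 regions), TGF-beta signalling (71), cell cycle (23) and iron and oxidative stress (43) had none called in either direction by limma. With adult replicate 1 left out, 1, 3, 2 and 0 of them were higher and 0, 0, 0 and 1 lower. Antigen presentation was the list with no gained region, 0 of 40, against 6.11% of all regions. Cell-cycle genes had 3 gained regions of 54 (5.56%, against 6.11% of all regions). Of these, that of Cdk1, the mitotic kinase, had 92.4 and 172 tags over its start site. Mki67, which encodes the protein the cells were sorted against, was listed over its start site in cuprizone replicate 2 alone, with 67.6 tags. Away from its start site Mki67 had a gained region, which held 88.0 and 92.8 tags in cuprizone Ki67-positive cells.

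Outside the lists, large increases lay at genes with no shared label. A region 79946 bp downstream of the start of Tmem163, a zinc transporter, rose from 10.9 and 21.3 tags to 240.4 and 369.9 (log2 difference 3.60, SE 0.42, limma adjusted p 0.001993). Regions near Xylt1, Ssh1, Rap2b, Gramd1b and Myo1e rose by 3.30, 3.07, 2.97, 2.82 and 2.72 on the same scale, and in each both cuprizone values were above both adult values. Xylt1 starts the sugar chains of proteoglycans, Ssh1 and Myo1e act on actin, Rap2b is a small GTPase, and Gramd1b moves cholesterol from the plasma membrane. Gramd1b went from 17.9 and 88.1 tags to 405 and 477. The region nearest to Xylt1 went from 10.5 and 58.7 to 369.8 and 413, and Xylt1 had 5 gained regions besides, as many as any gene. Of the 10 largest increases, 9 lay away from the start site, between 161 and 88285 bp, and 1, that of Apoe, over it.

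The largest decreases were smaller. Bmp2k, a kinase, had the highest level among them, with 824 and 1045 tags in the adult and 386 and 402 after cuprizone, 78432 bp upstream of its start (log2 difference -1.84, SE 0.26, limma adjusted p 0.004736). Per kb of covered length its difference was -0.45 and was not called. A region near Cep170, a centrosome protein, fell from 140.2 and 142 to 38.0 and 40.4 (-2.42, SE 0.43, limma adjusted p 0.01376). The others, near Suco, Krt8, Idh2, Plxna4, Sema4b, Sash3, Copz2 and Fosb, fell by 1.77 to 2.49 on the log2 scale, with adjusted p between 0.01631 and 0.04886. For Copz2 the deposited tags overlapped, 227 and 95.9 against 216 and 522.

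Rab7b, a GTPase of late endosomes, had the gained region with the highest signal over a start site, 350.3 and 492 tags, 7575 bp from the nearest adult region. Bhlhe40 and Axl, above, were the other start sites among the 10 gained regions with the most signal. Others of the 10 lay near Nceh1, Mturn, Cd9, Capzb, Cxxc5 and Naa20. Those near Cxxc5, Capzb and Naa20 were 565, 687 and 1485 bp from an adult region. Of the 10 lost regions with the most signal, 9 lay within 3465 bp of a cuprizone region, near F11r, Ssh2, Rcan1, Ticam1, Gng10, Ppp1r15a, Cx3cr1, Msn and Sh3glb1. The other, near Asmt, was 686691 bp from any cuprizone region, with 136 and 23.3 adult tags.

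Gained regions were mostly distal, as were regions in 1 cuprizone list only. Start sites fell inside 8.72% of the gained regions, 7.56% of those in 1 cuprizone list only and 42.7% of those in all 4 lists. Median lengths were 1248, 632 and 2180 bp. The gained regions carried little signal, with medians of 26.5 and 51.5 tags in the 2 cuprizone libraries. H3K4me3, a promoter mark, was listed in both adult libraries at 14.7% of them. It was at 17.0% of the regions in 1 cuprizone list only and 58.2% of those in all 4 lists. Adult ATAC-seq, which marks open chromatin, had a peak at 68.0% of the gained regions. The share was 56.5% in 1 cuprizone list only and 98.5% in all 4 lists. The gained regions belonged to 1501 nearest genes, 221 of which had at least 2. In adult RNA those genes had a median of 20.37 TPM, and 20.7% were under 1 TPM. For regions in all 4 lists the values were 29.43 TPM and 9.7%. For those in 1 cuprizone list only they were 15.54 TPM and 23.9%. By their labels, the adult H3K4me3, ATAC-seq and RNA samples came from older mice than the adult H3K27ac libraries. Igf1 (0.712 and 0.619 TPM) and Rab7b (0.72 and 1.01 TPM) were nearly silent in the adult, while Cd9 (315 and 321 TPM) was among the most abundant.

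Most gained regions, and most of all regions, were in both cuprizone Ki67-positive lists (65.7% and 71.3%). Whether any region was called between Ki67-negative and Ki67-positive cells depended on the fit. The Ki67-negative and Ki67-positive libraries of the same number carry the same header code, whose meaning the labels do not give. With that code as a block, over the 4 cuprizone libraries and the 15848 regions in all 8 lists, 1453 regions (9.17%) were higher in Ki67-negative cells by limma and 1049 (6.62%) lower. That fit, chosen after seeing the data, has 1 residual degree of freedom. Without the block 0 regions were called, in the 4 libraries alone (2284 at an unadjusted p under 0.05) or in a fit of 8 libraries with adult and PND8 cells (1414), which gave 49 higher and 32 lower without adult replicate 1.

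Several regions that rose against the adult held more signal in the Ki67-positive cells of the same code. Tmem163 had 240.4 and 369.9 tags in Ki67-negative and 515 and 576 in Ki67-positive cells, a log2 difference of -0.96 (SE 0.12, limma adjusted p 0.003813 with the block). Ccl2 had 256 and 281 against 549 and 615 (-1.21, SE 0.10, limma adjusted p 0.00289 with the block). The Lpl region 44543 bp downstream had 174 and 208 against 316 and 321 (-0.84, SE 0.12, limma adjusted p 0.0055 with the block). Apoe over its start site had 352 and 607 against 563 and 671 (-0.51, SE 0.12, limma adjusted p 0.02726 with the block). Itgax was not called (0.18, SE 0.10), nor was P2ry12 over its start site (0.16, SE 0.09). This contrast shares the cuprizone Ki67-negative libraries with that against the adult. Of the gained regions, 1356 (65.7%) were in both Ki67-positive cuprizone lists and 89.4% in at least 1, against 71.3% and 87.2% of all regions. The region between Apoe and Apoc1 held 349 and 608 tags in Ki67-positive cells, and Axl 303 and 507 over its start site. Since those lists were called in the same way, a region could be missing from one through its threshold alone.

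PND8 Ki67-negative microglia, taken from mice 8 days old, shared some of these regions and not others. Both PND8 lists held 43.0% of the gained regions, against 73.6% of all regions. Both repopulation Ki67-positive lists held 47.5%, against 70.4% of all regions. The repopulation mice were 90 days old, had been given the depleting drug PLX5622 for 17 days and had recovered for 3 days. In the 8-library fit, 1437 regions (9.07%) were higher and 374 (2.36%) lower after cuprizone than at PND8, with 4372 at an unadjusted p under 0.05. This contrast shares the cuprizone libraries with that against the adult. Apoe had 545 and 542 tags over its start site at PND8 and did not differ by the test from cuprizone (log2 difference -0.58, SE 0.24, limma adjusted p 0.1442). Itgax had 22.4 and 71.7 tags and was higher after cuprizone by 3.07 (SE 0.41, limma adjusted p 0.001091), and the Lpl region 44543 bp downstream had 31.1 and 28.5 and was higher by 2.29 (SE 0.37, limma adjusted p 0.002775). Igf1 was listed at PND8 with 260 and 245 tags over its start site and in neither repopulation library. Lgals3 was in neither list of either group over its start site, and Bhlhe40 held 338 and 338 tags in repopulating cells, 8.67 in 1 PND8 library and no listing in the other. Of the gained regions, 276 (13.4%) were in no PND8 or repopulation list, against 6.95% of all regions and 24.8% of those in 1 cuprizone list only.

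**Figure D5:**
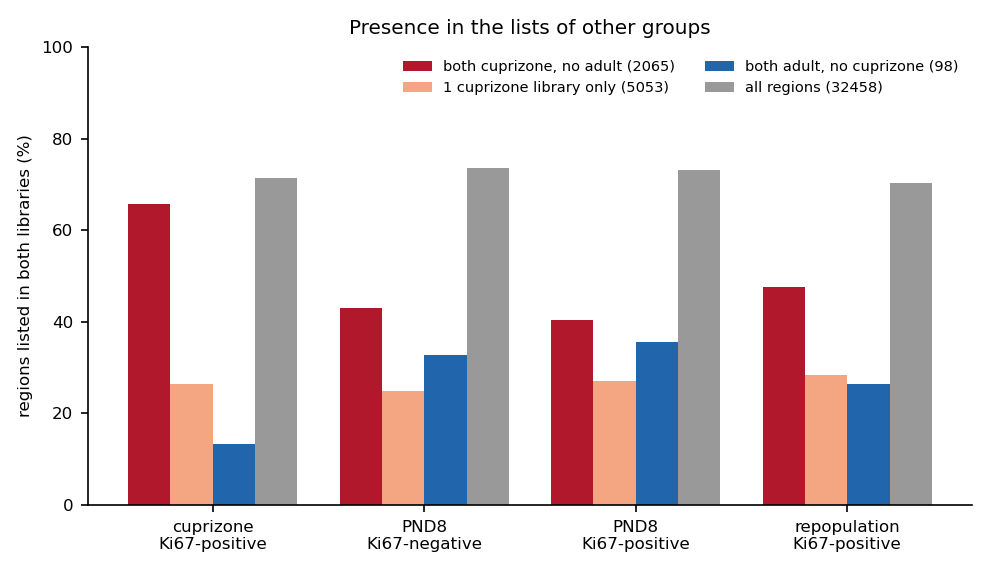
Share of regions (y axis, %) listed in both libraries of each other H3K27ac group (x axis), for gained regions (red), regions of 1 cuprizone library only (orange), lost regions (blue) and all union regions (grey). Gained regions reached 65.7% in cuprizone Ki67-positive cells, where all regions reached 71.3%. In PND8 Ki67-negative cells the values were 43.0% and 73.6%.

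Markers of other cells had few regions over their start sites. None of the 10 neuronal markers had a region over its start site in any library, nor had any of 12 monocyte or neutrophil markers. Of 12 oligodendrocyte-lineage markers 4 had one in each cuprizone library, 2 in adult replicate 1 and 3 in adult replicate 2, with Mag and Sox10 at none. Cspg4 was gained over its start site, with 27 and 54.5 tags. Cnp held 317.8 and 379 start-site tags against 149 and 288.5 in the adult, and Mog 34.0 and 28.8 against 31.0 and 97.7. Mbp held 52.5 and 112 against 50.6 in adult replicate 2 alone. The summed tags of the list were 3282 and 4065 after cuprizone and 1175 and 2955 in the adult. Of its 19 regions 3 were gained (15.8%, against 6.11% of all regions). Astrocyte markers had 1 of 10 in all 4 libraries, with sums of 2409 and 2698 against 1075 and 2819. Endothelial markers had 2 or 3 of 10, with sums of 2209 and 3112 against 1147 and 2323. Among them Kdr had 254 and 356 start-site tags after cuprizone and 114 and 196 in the adult. Pecam1 had 58.0 and 65.1 against 42.4 and 115.9, and Flt1 had 52.0 in cuprizone replicate 2 alone. Border-macrophage markers had 1 or 2 of 10 (sums of 754.7 and 1022 against 322 and 1136), and lymphocyte markers 0 to 2 of 11 (637 and 1080.0 against 353 and 723). The monocyte and neutrophil sums were 499 and 748.5 against 221 and 707. No region of these 7 lists passed the test by limma, beside 0.956% higher and 0.177% lower of all regions. With adult replicate 1 left out, 1 endothelial region was higher, and 1 endothelial, 1 oligodendrocyte-lineage, 2 astrocyte and 1 border-macrophage regions were lower. The part of other cells in the results was not tested, and in bulk chromatin a larger share of cells with the mark and more mark per cell cannot be told apart.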

How the data were processed

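H3K27ac regions were called by the authors with HOMER (4.11 per the submitters' processing notes), in each library against its own input, at 4-fold over input and an FDR of 0.001, per the file headers. The deposited signal is the tag count per region normalized to 10000000 tags, and the deposited ratio is the fold over input; the header names columns 9 to 14 in another order than the values, and the ratio was taken as column 13. RNA levels are TPM as the authors deposited them. The 4 lists were merged, tags were summed per union region, and each region was given the nearest start site of the RNA table. Regions in all 4 lists were tested as log2(tags + 1), centred on each library's median, with limma 3.58.1 (R 4.3.3) and Benjamini-Hochberg adjustment, after a check on simulated data. A region that is not listed was under the caller's threshold, not at 0. The genes named were the 10 largest increases and decreases within 100000 bp, the 10 gained and 10 lost regions with most signal, a panel of 21 genes and up to 4 examples per list; some of them are not reported here. The comparison and the lists were chosen with earlier results of these data known. The cuprizone Ki67-negative and Ki67-positive libraries of 1 number share a header code, which was used as a block in an added fit. Alternatives were other pseudocounts, scalings, filters, merging distances, replicate blocks and leaving out each library.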

Additional observations from a re-analysis of the deposited data

How the results depend on the processing

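The lists hold normalized tags and no counts, so depth could not be modelled and the planned count test was not run; a region under the caller's threshold has no value. The 211 called regions (179 higher, 32 lower) became 727 (525 and 202) over regions in at least 2 lists with missing values at 0, 22 (19 and 3) at 8-fold over input, and 503 (415 and 88) with 8 libraries in the fit. The number lower was 0 as deposited, 17 after quantile normalization and 55 per kb. With replicate number as a block the calls were 578 (353 and 225), 61.1% of them higher, and all 211 were kept, but the samples share only a number: same-numbered deviations had a correlation of -0.143. With the pairing crossed, chosen after seeing the data, there were 1188 (818 and 370). Over regions in the 3 other lists without adult replicate 1, also chosen after seeing the data, there were 1238 (822 and 416). Leaving out 1 library gave 21 to 4402 calls, 17 to 2286 higher and 4 to 2116 lower, with the most calls (51.9% higher) without adult replicate 2. The cause was not tested. Gained and lost regions were 705 and 65 at 8-fold over input and 1417 and 42 over 5000 bp from the other group; leaving out 1 library gave 2358 to 6608 and 180 to 1086.

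Against cuprizone Ki67-positive cells, leaving out 1 library gave 0 to 81 calls, 0 to 49 higher and 0 to 32 lower. The replicate block on the 4 cuprizone libraries, where the number is also the header code, gave 2502 (1453 higher, 1049 lower); with the number as a block over 8 libraries, where codes and numbers differ, there were 0. Against PND8 Ki67-negative cells there were 1132 as deposited, 22 of them lower, and 397 to 3527 without 1 library, 353 to 2290 higher and 34 to 1240 lower. The median difference of homeostatic genes was 0.40 as deposited. That of disease-associated genes was 0.80 as deposited and 0.39 after quantile normalization, and 0.15 to 0.33 without 1 library.

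The start-site regions that changed sign were not called in the report. Without adult replicate 1, over the 3 other lists, Sall1 was at -0.38 and Abca1 at 0.11. As deposited, Csf1r was at 0.13, Abca1 at 0.60, Siglech at 0.44 and Cx3cr1 at 0.53. After quantile normalization Abca1 was at 0.24, Siglech at 0.06 and Cx3cr1 at 0.30, and at 8-fold over input at 0.20, 0.04 and 0.12. Abca1 was at 0.01 with a pseudocount of 8 and with 8 libraries, and at 0.15 when merged within 1000 bp, where Cx3cr1 was at 0.06. Per kb, Siglech was at 0.10 and Sall1 at -0.04, and over regions in at least 2 lists Sall1 was at -0.14. Without 1 library Abca1 ran from -0.20 to 0.19, Siglech from -0.43 to 0.10, Sall1 from -0.34 to 0.47 and Cx3cr1 from -0.34 to 0.19. Over the named regions, 497 values kept their direction and side of the threshold, 103 lost the call, 9 gained one and 27 changed sign.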
